A study of Mus musculus with 6 samples.

Results

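Gm3893 and Fam205a2 are genes of a repeated stretch of mouse chromosome 4, and their probe sets were read on 6 expression arrays of whole cerebellum at postnatal day 7. They were taken by their annotation: every probe set whose gene symbols include Gm3893 or Fam205a2, alone or with others, which gave 21 of the 41345 probe sets in the table, for 2 of the 23981 gene symbols it names. Of these, 16 held Gm3893, 5 held Fam205a2 and 0 held both. The pair had been picked because its probe sets read higher in the knockout in these same data, so their values are given as a description, with no test.

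The 3 wild-type arrays came from mice that carry Math1Cre with wild type Crebbp. The 3 knockout arrays came from mice that carry Math1Cre and 2 floxed Crebbp alleles (Math1Cre::CrebbpFl/Fl), so the Cre transgene is common to both groups. Math1 (Atoh1) drives Cre in granule neuron precursors, and the cerebellum also holds cells outside that lineage. No label names the strain, a litter or a batch, or says that the arrays of a group came from separate animals. The p-values below therefore measure only the spread between these samples, which may be technical, and with 3 arrays a group that number limits the precision.

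Tandem copies make this stretch of chromosome 4 hard to read with short probes. It is known for several copies of the chemokine genes Ccl19, Ccl21 and Ccl27, which draw lymphocytes and dendritic cells to lymphoid tissue or T cells to skin, and of genes that code for an interleukin 11 receptor chain. The Fam205 genes belong to a family related to SPATA31, whose members are known from sperm development. A transcribed pseudogene such as Gm3893 makes RNA but codes for no known protein, and a probe that matches several copies reports their summed signal.

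The mouse gene table (RefSeq, assembly GRCm38.p6) lists Gm3893 (gene 100042539) as a transcribed pseudogene and Fam205a2 (gene 545611) as protein coding, both on chromosome 4. It places 19 genes between them, of which 9 are pseudogenes, 7 are protein coding and 3 are long noncoding RNA genes. The annotation gave 0 probe sets to each of the close relatives Fam205a1, Fam205a3 and Fam205a4, so signal from them has no probe set of its own here. RefSeq's windows of 250 bases before to 50 after a gene's start were compared for shared runs. Of both members, 1 had such windows, Fam205a2 with 2. Among its relatives, Fam205a1, Fam205a3 and Fam205c had windows too. The pair below is printed because the window of Fam205a1 was the only other in the table that shared a run of at least 30 bases with a window of Fam205a2, and because its gene has no probe set. Capitals mark their longest shared run, 101 bases, and both are on the minus strand of GRCm38.p6.
Fam205a2, chr4:42528188-42528487: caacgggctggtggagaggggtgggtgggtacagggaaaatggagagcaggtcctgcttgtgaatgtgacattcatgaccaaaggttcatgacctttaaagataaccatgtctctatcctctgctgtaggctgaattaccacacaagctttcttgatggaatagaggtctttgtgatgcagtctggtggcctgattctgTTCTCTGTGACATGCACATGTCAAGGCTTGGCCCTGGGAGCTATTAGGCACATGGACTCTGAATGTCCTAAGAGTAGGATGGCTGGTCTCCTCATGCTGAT
Fam205a1, chr4:42853839-42854138: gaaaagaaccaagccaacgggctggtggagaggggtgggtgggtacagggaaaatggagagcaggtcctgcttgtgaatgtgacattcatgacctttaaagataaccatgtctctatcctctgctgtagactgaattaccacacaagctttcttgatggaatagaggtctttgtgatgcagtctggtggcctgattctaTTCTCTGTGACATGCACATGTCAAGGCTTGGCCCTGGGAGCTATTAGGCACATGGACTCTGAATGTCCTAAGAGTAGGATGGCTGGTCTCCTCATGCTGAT

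CREBBP is a coactivator that CREB brings to cAMP response elements. The full element TGACGTCA, read on both strands, was in 0 of the 2 windows of Fam205a2 and in 1.79% of all 32851 windows. Its shorter form TGACG, which the full element contains, was also in 0 of the 2, and in 20.8% of all. Only these letters in these windows were searched.

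As a check of the labels, Crebbp itself read 11.96, 11.99 and 11.90 (log2) in wild type against 11.46, 11.42 and 11.32 in knockout, a fall of 0.56 (SE 0.05; limma adjusted p = 0.00466). All 3 knockout values lay below all wild-type values. Adding the mean of the choroid plexus markers to the fit cost it the call (log2 change -0.53, limma adjusted p = 0.0577). Among all probe sets 313 rose and 459 fell at a limma adjusted p under 0.05.

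All 21 member probe sets read higher in the knockout, and in each of them the 3 knockout values lay above the 3 wild-type values. Such separation was found in 10.3% of all probe sets. The log2 change, knockout minus wild type, ran from 0.46 to 2.78 over the 21, with a median of 1.48, against a median of 0.00 over all probe sets. In the fit over all probe sets 20 of the 21 were called higher, where 0.757% of all probe sets were, and 0 lower, where 1.11% were. A log2 change of at least 1 was reached by 12 member probe sets and by 0.29% of all probe sets, and a change of at least 2 by 6 members of 22 probe sets in all. The choice of the members fixes or favours all these counts, which include identical copies, and nothing is read from them. In whole tissue, more cells of a type and more RNA per cell cannot be told apart.

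**Figure D1:**
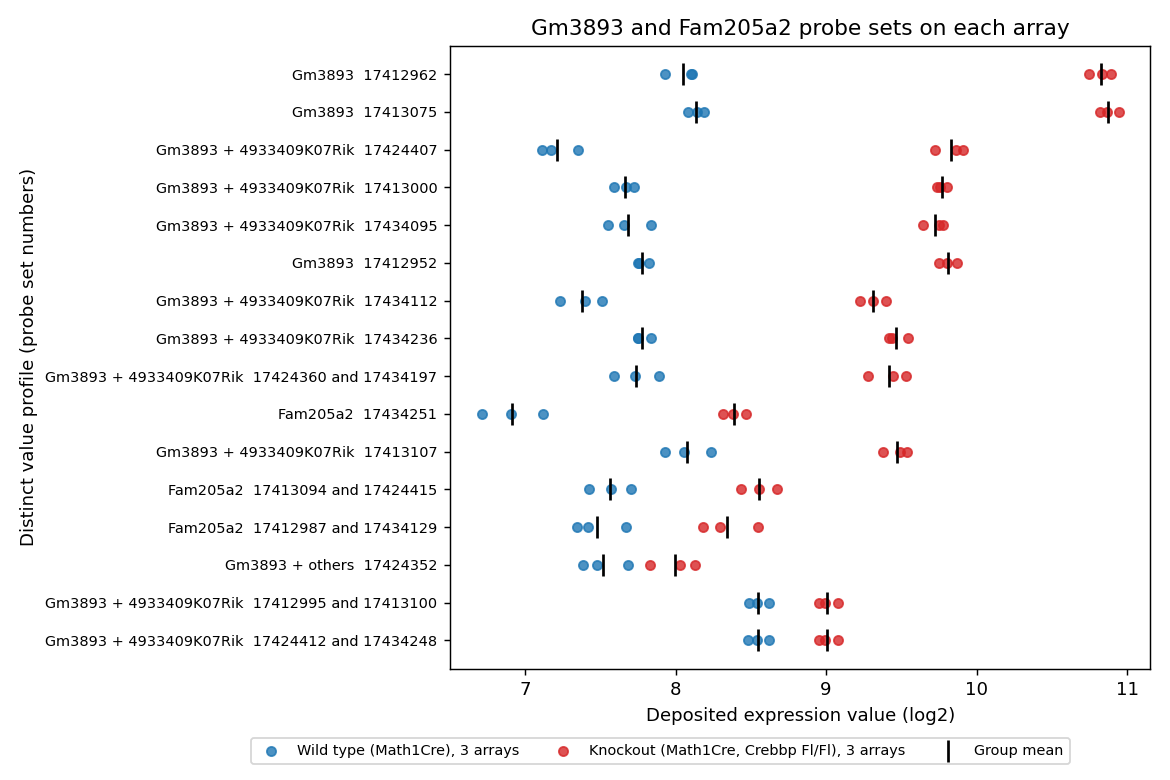
Deposited log2 value (x axis) of each of the 16 distinct member profiles (y axis, symbols and probe set numbers) on 3 wild-type (blue) and 3 knockout (red) arrays, with group means as black ticks; probe set 17424360 also lists Ccl27b, Gm13306 and LOC100861978. The groups are apart in every profile, by 0.14 in probe set 17424352 and by 2.64 in probe set 17412962.

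Gm3893 had 3 probe sets to its name alone, and these had large differences. Probe set 17412962 read 8.11, 8.10 and 7.93 in wild type against 10.89, 10.75 and 10.83 in knockout. Its groups lay 2.64 apart at their nearest values, and the change of 2.78 (SE 0.07) is a 6.85-fold difference. Probe set 17413075 read 8.14, 8.19 and 8.08 against 10.94, 10.82 and 10.87, a change of 2.74 (SE 0.06). The remaining Gm3893 probe set, 17412952, read 7.76, 7.75 and 7.82 against 9.87, 9.80 and 9.75, a change of 2.03 (SE 0.06) or 4.09-fold. The within-group SD of these 3 ran at a median of 0.05 in wild type and 0.06 in knockout, and no array stood apart from its group.

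A further 11 probe sets listed Gm3893 together with 4933409K07Rik, another transcribed pseudogene of chromosome 4. Their changes spanned 0.46 to 2.62, with a median of 1.68. Probe set 17424407 had the largest, from 7.21 ± 0.13 to 9.83 ± 0.10 (SD, n = 3 each). It read 7.35, 7.11 and 7.17 in wild type and 9.91, 9.72 and 9.86 in knockout. In the middle of the range, probe set 17434236 read 7.84, 7.75 and 7.75 against 9.44, 9.54 and 9.42, a change of 1.69 (SE 0.06). Probe sets 17413000, 17434095 and 17434112 changed by 2.11, 2.04 and 1.93, and probe set 17413107 by 1.40. At the low end, probe set 17412995 read 8.48, 8.62 and 8.54 against 8.95, 8.99 and 9.08, a change of 0.46 (SE 0.06). Probe sets with the same annotation thus differed among themselves by more than 2 on the log2 scale.

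The last 2 probe sets of Gm3893 listed still more genes. Probe set 17424360 also names 4933409K07Rik, Ccl27b, Gm13306 and LOC100861978, and read 7.89, 7.73 and 7.59 against 9.45, 9.28 and 9.53, a change of 1.68 (SE 0.10). Probe set 17424352 names Gm21586, Gm20878, Gm21953 and LOC100862220 beside Gm3893. It read 7.48, 7.69 and 7.39 against 7.83, 8.03 and 8.13, a change of 0.48 (SE 0.11). Its groups came within 0.14 of each other, the narrowest gap of the 21, and it was the 1 member not called in the fit.

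Fam205a2 had 5 probe sets of its own and 3 distinct sets of values. Probe set 17434251 read 7.12, 6.91 and 6.71 in wild type and 8.47, 8.38 and 8.32 in knockout, a change of 1.48 (SE 0.11) or 2.78-fold. Probe sets 17413094 and 17424415 both read 7.71, 7.42 and 7.57 against 8.44, 8.67 and 8.55, a change of 0.99 (SE 0.10). Probe sets 17412987 and 17434129 both read 7.67, 7.34 and 7.42 against 8.18, 8.55 and 8.30, a change of 0.87 (SE 0.12). The smallest gap between the groups was 0.51, and the spread within groups (median SD 0.17 in wild type and 0.12 in knockout) was wider than for the probe sets of Gm3893 alone. The lowest value of any member, 6.71 in wild type, belongs to Fam205a2. It lies above the 25th percentile of all values (6.02), but no measure of background came with the data and no member has a detection call.

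Identical values were frequent among the members. Of the 21 probe sets, 10 had the same values as another member on all 6 arrays, in 5 pairs, which leaves 16 distinct profiles: 13 for Gm3893 and 3 for Fam205a2. This is 47.6% of the members and compares with 3.37% of all probe sets (1395, in 592 groups of up to 16). Repeats were also found in other copies of the stretch outside the members. There, 9 Ccl21 probe sets held 5 distinct profiles, 13 of Ccl19 held 8, 12 of Ccl27 held 9 and 8 of 4933409K07Rik held 5. The 22 probe sets of flanking genes with 1 symbol held 22. The pairs of Fam205a2 are given above. For Gm3893 they were 17412995 with 17413100, 17424412 with 17434248, and 17424360 with 17434197. Members of a pair carried the same symbols, except that 17424360 lists Ccl27b, Gm13306 and LOC100861978 and 17434197 does not. The first and second of these pairs differed from each other by at most 0.002 on any array, so 4 probe sets gave nearly 1 set of values. All other profiles differed by at least 0.15 on some array, and 0 members shared all values with a probe set outside the members. Such copies are not independent readings. Counted once each, the 16 profiles had a median change of 1.68, and 11 of them had a change of at least 1.

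**Figure D2:**
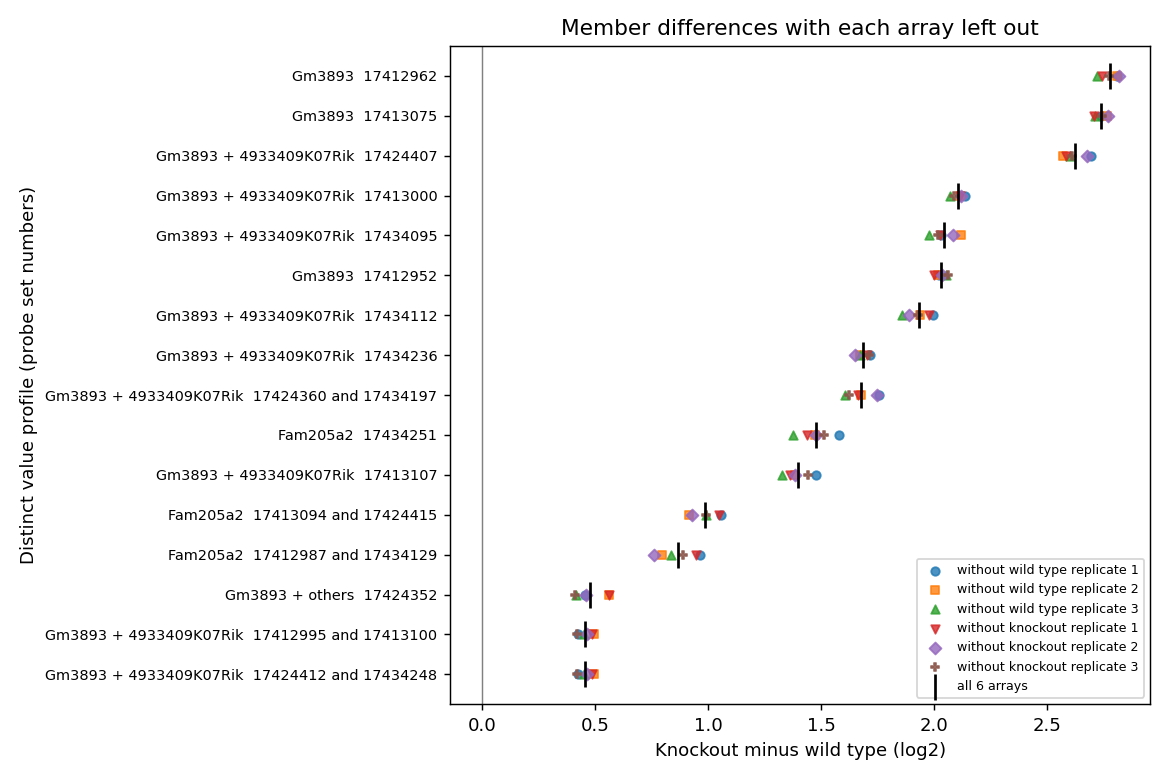
Knockout minus wild type (x axis, log2) for each member profile (y axis) with all 6 arrays (black tick) and with each array left out in turn (coloured symbols). The values run from 0.41 for probe set 17424352 to 2.81 for probe set 17412962.

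With any array left out, the change of probe set 17412962 ran from 2.72 to 2.81, that of 17434251 (Fam205a2) from 1.38 to 1.58, and that of 17424352 from 0.41 to 0.56. Because the groups of every member lay apart, leaving out an array could not turn a sign, and these ranges give only the size.

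Choroid plexus markers and Xist varied between the arrays and are given for comparison; beyond these values, their part in the members' differences was not tested. Of the 10 choroid plexus markers, 7 had a probe set with a single symbol. All 7 had a positive change, from 0.085 to 2.53 with a median of 0.98. By limma 0 passed, where 1.87% of all probe sets did, so 0 among so few is near that background. An unadjusted p under 0.05 was found for 2 of them, where 6511 of all 41345 had one. The mean of the list ran from 7.33 to 8.17 over the wild-type arrays and from 7.43 to 9.81 over the knockout arrays. Ttr, the transthyretin gene that marks this epithelium, read 12.30 on wild-type replicate 1 and 13.77 and 13.92 on knockout replicates 1 and 3, and at most 9.19 on the other 3 arrays. On knockout replicate 2, where Ttr read 9.19, the 21 member probe sets read above the mean of the 2 wild-type arrays with low Ttr by a median of 1.57 (0.41 to 2.73), a sign fixed by groups that do not overlap. Once the choroid plexus mean entered the fit, the median member change was 1.43. In that fit 12 members were called, where 47 of all 41345 probe sets were called higher and 44 lower. The members were picked for reading higher in these same data, so nothing is read from their count. Xist, which is transcribed from the inactive X chromosome of females, was high on wild-type replicates 1 and 2 and knockout replicate 3 (12.3 on each) and low on the other 3 arrays (5.74 to 6.45), so both groups held both levels.

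Probe sets that name 4933409K07Rik without Gm3893 were outside the rule and divided into 2 kinds. This symbol was taken up after the annotation and values of the members had been seen. Of its 8 probe sets, which hold 5 distinct profiles, 3 rose, 0 fell and 5 did not pass, where 1.87% of all probe sets passed in either direction. Probe set 17434290 read 7.39, 7.22 and 7.28 in wild type and 8.99, 8.94 and 9.07 in knockout, a rise of 1.71 (SE 0.07, limma adjusted p = 7.29e-05). Probe sets 17424447 and 17434275, which hold the same values, read 7.79, 7.82 and 7.87 against 8.90, 9.11 and 9.03, a rise of 1.19 (SE 0.07, limma adjusted p = 0.000563). Both kept the call with each array left out in turn. On the 3 arrays with Ttr at or below 10 the changes were 1.69 and 1.27, and the calls were lost (limma adjusted p = 0.0879 and 0.128). The other 5 had changes of 0.12 to 0.22, as in probe set 17412998, which read 8.97, 9.14 and 9.03 against 8.84, 9.41 and 9.44 (limma adjusted p = 0.653). On these, knockout replicate 1 lay below all wild-type arrays and knockout replicates 2 and 3 above them.

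Outside the member probe sets, the neighbours of the members gave 0 calls. In a window of 25 genes to each side of each member there were 69 other genes, of which 15 had a probe set of their own, 16 only shared ones and 38 none. Together with the other genes listed for the stretch and the Fam205 and Spata31 families, 61 probe sets (49 distinct profiles) were tested. Member probe sets were left out of the 61, and some of them list neighbour genes too. Probe set 17424360, with Ccl27b and Gm13306, had a change of 1.68 and was called. Probe set 17424352, with Gm21586, Gm20878 and Gm21953, had a change of 0.48 and was not. By limma 0 of the 61 passed, where 1.87% of all probe sets did, and 2 had an unadjusted p under 0.05, where 6511 of all 41345 did. A count of 0 among so few is near that background. For these probe sets the changes ran from -0.27 to 0.17 with a median of 0.00.

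**Figure D3:**
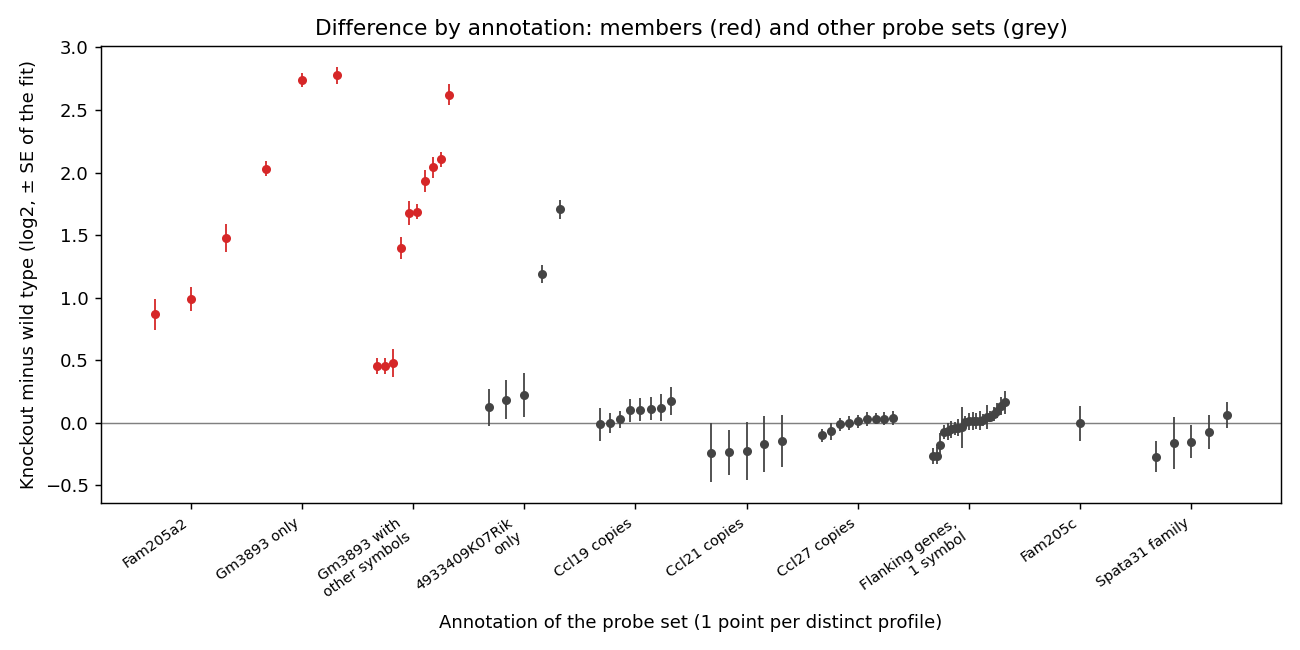
Knockout minus wild type (y axis, log2, bars are ± SE of the fit) for each distinct profile, grouped by annotation (x axis), with members in red and other probe sets of the stretch or families in grey. Members lie between 0.46 and 2.78. Outside the members, 4933409K07Rik lies between 0.12 and 1.71, and the chemokine copies, flanking genes, Fam205c and Spata31 genes lie between -0.27 and 0.17.

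Ccl27a and Ccl27b lie on either side of the members in the gene table. For the 12 probe sets with a Ccl27 symbol and no member symbol (9 profiles) the change ran from -0.10 to 0.04, and 0 passed. Member probe set 17424360, which also lists Ccl27b, is not among them and had a change of 1.68. Ccl27a, in probe set 17413054, read 9.44, 9.43 and 9.40 against 9.32, 9.27 and 9.37 (change -0.10, SE 0.05, limma adjusted p = 0.399). The 13 probe sets with a Ccl19 symbol (8 profiles) changed by -0.01 to 0.17, and 0 passed.

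The 9 probe sets with a Ccl21 symbol (5 profiles) also gave 0 calls, but their knockout arrays lay on both sides of wild type. Probe set 17412965, whose values 3 others repeat, read 9.19, 9.07 and 9.12 in wild type and 9.52, 8.62 and 8.53 in knockout, a change of -0.24 (SE 0.24, limma adjusted p = 0.705). In all 5 profiles knockout replicate 1 read above every wild-type array and knockout replicates 2 and 3 below every one. Without knockout replicate 1 the change of 17412965 was -0.56 (SE 0.07, limma adjusted p = 0.0412). That of 17424461 was -0.54 (limma adjusted p = 0.0307). With the copies of 17412965 this made 5 Ccl21 probe sets that passed, and 4 did not. Leaving out knockout replicate 1, the array that lay apart, lowers the spread by itself, so nothing is read from these calls. The same array took the opposite side in the 5 probe sets of 4933409K07Rik that did not pass. On the members this array lay with the other knockout arrays.

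**Figure D4:**
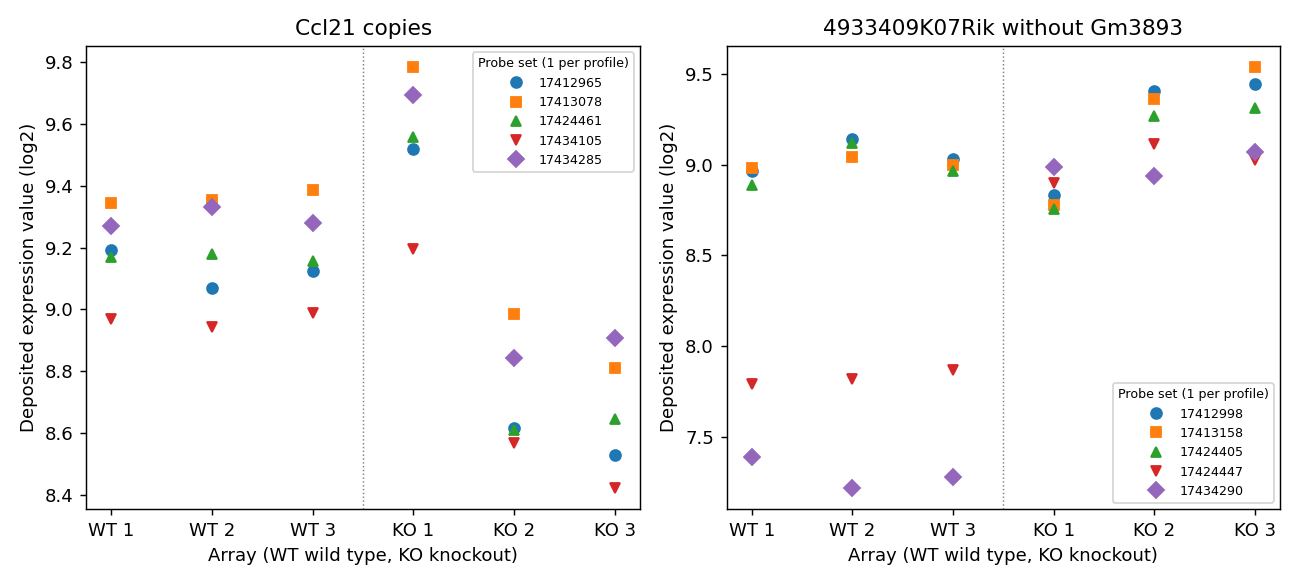
Deposited log2 value (y axis) of the 5 distinct Ccl21 profiles (left) and the 5 distinct 4933409K07Rik profiles (right) on each array (x axis), 1 symbol per profile, with the groups parted by a dotted line. Knockout replicate 1 is highest in the Ccl21 panel, while in 3 profiles of the right panel it is lowest.

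The genes that flank the copies also gave 0 calls. The 22 probe sets of flanking genes with 1 symbol had changes of -0.26 to 0.16, and 0 passed. Fam205c, given below with the relatives of Fam205a2, is counted among them. Dnajb5, an HSP40 cochaperone gene, read 9.71, 9.60 and 9.56 against 9.34, 9.30 and 9.43 (change -0.26, SE 0.06, limma adjusted p = 0.0881). Cntfr, the receptor subunit for ciliary neurotrophic factor, read 10.35, 10.24 and 10.13 against 9.96, 10.03 and 9.93 (change -0.26, SE 0.07, limma adjusted p = 0.107). Both passed, downward, when 1 probe set per gene was tested (limma adjusted p = 0.0285 and 0.0350).

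Relatives of Fam205a2 gave 0 calls by limma as well. Fam205c, the single other Fam205 gene with a probe set, read 5.75, 6.05 and 5.87 in wild type and 5.68, 6.08 and 5.89 in knockout (change -0.01, SE 0.14, limma adjusted p = 0.991), below the 25th percentile of all values on 4 of the 6 arrays. Of 5 Spata31 probe sets 0 passed, and the changes were -0.27 to 0.06. The smallest p values were those of Spata31d1d (change -0.27, limma adjusted p = 0.348), Spata31 (-0.15, limma adjusted p = 0.652) and Spata31d1b (-0.16, limma adjusted p = 0.783). Of 10 germ cell probe sets 0 passed, 1 had an unadjusted p under 0.05 and the median change was -0.05. The smallest p values there were those of Acr, the gene of the sperm protease acrosin (change -0.20, limma adjusted p = 0.226), Sycp1, a synaptonemal complex gene (-0.59, limma adjusted p = 0.540), and Odf1, a sperm tail gene (0.09, limma adjusted p = 0.566).

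Of the labelled tissue's own markers, the granule lineage genes read 8.90 to 13.1 and the Purkinje cell genes Calb1 and Car8 12.1 to 12.4 (log2 means in wild type). Of 5 granule lineage probe sets 1 rose, where 0.757% of all did, and 2 fell, where 1.11% did. The rise was in Atoh1 (Math1), the precursor transcription factor that the Cre driver is named after (change 0.52, SE 0.07, limma adjusted p = 0.0187). The falls were in Pax6 (-0.30, limma adjusted p = 0.0251) and Zic1 (-0.24, limma adjusted p = 0.0379). Neurod1 (-0.51, limma adjusted p = 0.0941) and Barhl1 (0.15, limma adjusted p = 0.393) did not pass. In Neurod1 all knockout values lay below all wild-type values. The mean of this list, in which rises and falls offset each other, ran from 10.6 to 10.8 over the 6 arrays.

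Among 22178 genes with a probe set of their own, the patterns most like the mean of the 16 member profiles over the 6 arrays were ranked by Pearson's r. They were Chrna3, a nicotinic receptor subunit gene (r = 0.998), 4933409K07Rik in probe set 17434290 (0.998), the chemokine receptor gene Cxcr4 (0.995), 3000002C10Rik (0.994) and the ceramide synthase gene Cers2 (0.994). The 6 arrays fall in 2 groups, so a high r mostly restates the difference between them. Chrna3 read 11.38, 11.30 and 11.34 against 12.13, 12.14 and 12.16 (change 0.80, SE 0.04), and Cxcr4 10.36, 10.41 and 10.32 against 11.10, 11.02 and 11.07 (0.70, SE 0.05). The changes of 3000002C10Rik and Cers2 were 0.49 and 0.47. Cers2 lost its call without wild-type replicate 1 or 2 (limma adjusted p = 0.0761 and 0.0561) and without knockout replicate 1, 2 or 3 (limma adjusted p = 0.0565, 0.0538 and 0.0573). It also lost it with the replicate number as a block (change 0.47, limma adjusted p = 0.0552). With the choroid plexus covariate the calls of Cers2 (change 0.50, limma adjusted p = 0.0863) and 3000002C10Rik (0.49, limma adjusted p = 0.0741) were lost. On the 3 arrays with low Ttr none of Chrna3, Cxcr4, 3000002C10Rik and Cers2 was called (limma adjusted p = 0.240, 0.311, 0.361 and 0.431), with changes of 0.82, 0.66, 0.55 and 0.51.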

How the data were processed

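Total RNA of cerebellum was labelled for Affymetrix arrays, per the labels' protocols. The authors deposited 1 log2 expression value per probe set and array. The submitters' processing notes name RMA and the oligo package, without versions, and neither a build for the array design nor a filter is stated there. The values were used as deposited (array medians 7.25 to 7.29). GEO's platform annotation gave 1 symbol to 23521 probe sets, several to 1814 and none to 16010. The groups were compared over all 41345 probe sets with limma 3.58.1 in R 4.3.3 (lmFit, eBayes with a trend), two-sided, with Benjamini-Hochberg adjustment and a threshold of 0.05. This fit was checked on simulated data.

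The members and gene lists were chosen with earlier results of these data known. Named besides the members were Crebbp, the members of the Fam205, Spata31, germ cell, stretch and neighbour lists that passed or otherwise the 3 with the smallest p, and the 5 genes most like the members by r. 4933409K07Rik, Ccl21, Ttr, Xist and the granule and Purkinje markers lie outside this rule and were named after their values were seen. Python 3.11.15, pandas 2.3.3 and matplotlib 3.10.9 served for tables and plots.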

Additional observations from a re-analysis of the deposited data

How the results depend on the processing

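Over 18 other fits of the same arrays, 269 of 274 changes of member profiles moved by less than 1 SD. The changes ran from 0.41 to 2.81, and their sign is fixed by groups that do not overlap. Fits that alter only the variance prior or the probe sets tested, or add the replicate number as a block, could not move a change. Their group means stay the same, so these fits say nothing about the size. The median member change was 1.86 with 1 probe set per gene (2 members tested, both called, from the brightest probe set of each) and 1.68 with identical probe sets counted once, and ran from 1.38 to 1.58 with 1 array left out. The number of members called was 12 with the choroid plexus covariate and 3 without the arrays with Ttr above 10, a fit on 1 knockout array that takes its spread from wild type. With 1 array left out it ran from 14 to 18. Of the 8 probe sets of 4933409K07Rik, 3 were called with each array left out in turn (3 to 3), and 0 without the arrays with Ttr above 10. With 1 probe set per gene 0 of 1 was called, since the brightest, 17412998, stands for the gene. For the neighbour and family probe sets the count was 2 with 1 probe set per gene, and 0 to 5 with 1 array left out. With 1 array left out, the change of Ccl21 probe set 17434285 ran from -0.419 to 0.007 and that of 17413078 and 17434230 from -0.463 to 0.024, the sign turning without knockout replicate 2 for the first and without knockout replicate 3 for the others.

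Over all probe sets, 66 rose and 74 fell with a constant prior variance, 604 and 875 with 1 probe set per gene (22180 tested), 47 and 44 with the choroid plexus covariate, 105 and 162 with Xist as a covariate, 8 and 1 without the arrays with Ttr above 10, and 52 and 60 at an adjusted p under 0.01. With 1 array left out, 87 to 189 rose and 82 to 260 fell. Fewer calls with 1 array left out come with fewer samples; for the other fits the cause was not tested. Xist as a covariate and the fit without arrays of high Ttr were added after the data were seen. With the replicate number as a block (replicate block), 141 rose and 227 fell, and 14 members were called. Same-numbered arrays did not deviate together over all probe sets (correlations of -0.04, -0.02 and -0.13). No label says that the numbers pair arrays, and with 3 arrays a group this check could not settle it. Without a background measure, how far dim probe sets can be read is unknown.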
